A study of Mus musculus with 6 samples.

Results

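The 41 genes described here carry fatty acids from the blood to the electron transport chain of the mitochondrion. They cover uptake and intracellular binding, activation to acyl-CoA, the carnitine shuttle, beta-oxidation, electron transfer flavoprotein, acyl-CoA thioesterases and the lipid droplet coat. They were chosen by gene name, for their place in the pathway, and all 41 were found among the 23284 genes listed for each library. Of these, 40 had a mean of at least 1 FPKM (a read count corrected for transcript length and sequencing depth) and were tested, and the lipid droplet protein Plin5 was under that filter.

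Long-chain fatty acids reach the heart as albumin-bound acids or as lipoprotein triglyceride, are bound inside the cell by small carrier proteins and are joined to coenzyme A before they are burned. The acyl group is passed to carnitine, carried across the inner mitochondrial membrane and shortened in repeated cycles that hand electrons to the respiratory chain. The adult heart draws most of its energy from this route, whereas the fetal heart relies mainly on glucose and lactate and raises its capacity for fatty acid oxidation around birth.

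The study sequenced polyadenylated RNA of whole mouse hearts on a C57BL/6 background at E13.5, a midgestation stage. Tfam encodes a mitochondrial transcription factor needed to transcribe and copy mitochondrial DNA. The Tfam KO group (3 libraries) had the genotype Tfam fl/fl with Nkx2.5 IRES-Cre/+, so both Tfam alleles carried loxP sites. The Control group (3 libraries) was Tfam fl/+ with the same Nkx2.5 IRES-Cre/+ allele, so the controls also carried Cre and 1 floxed Tfam allele. Each library was a pool of 5 hearts. Nkx2.5 IRES-Cre acts in the cardiac lineage, so cells of the heart outside that lineage keep Tfam in both groups.

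Recovered totals ran from 12544836 to 16709959 reads in Tfam KO libraries and from 12370092 to 18078620 reads in Control libraries. Tfam stood at 3.41, 5.17 and 4.69 scaled FPKM in Tfam KO libraries 1 to 3, against 5.71, 6.43 and 6.60 scaled FPKM in Control libraries 1 to 3. Scaled FPKM is FPKM divided by the library's size factor. The groups did not overlap for Tfam, but its log2 fold change of -0.43 (SE 0.15) did not pass the test (limma adjusted p = 0.140). The 9 cardiomyocyte markers summed to 6812 to 12926 scaled FPKM in Tfam KO libraries and 10427 to 13660 in Control libraries. Their median log2 fold change was -0.30, and 1 of them, Nkx2-5, was called lower (background 2.6%). With limma-voom 2 were lower (background 4.26%), and 3 had an unadjusted p under 0.05 (backgrounds 8.49% higher and 11% lower). The 9 endothelial markers summed to 146 to 161 scaled FPKM in Tfam KO libraries and 156 to 164 in Control libraries, with 0 called (0 also with limma-voom, 1 without adjustment). The sums of smooth muscle and of skeletal muscle markers were lower in every Tfam KO library than in any control. The 5 smooth muscle and pericyte markers summed to 30.8 to 31.4 scaled FPKM in Tfam KO libraries and 35.8 to 56.1 in Control libraries. Of these, 4 were tested with a median log2 fold change of -0.17, and Cnn1 was called lower. The 6 skeletal muscle markers summed to 24.4 to 28.5 scaled FPKM in Tfam KO libraries and 37.9 to 49.8 in Control libraries. Only Acta1 was tested, and it was called lower. The rest averaged under 1 FPKM each, so this sum is mostly Acta1. The 7 fibroblast and cushion mesenchyme markers had overlapping sums and a median log2 fold change of 0.25. Of these, 3 had an unadjusted limma p under 0.05 (backgrounds 8.49% higher and 11% lower). Medians were -0.44 for 6 tested erythroid, -0.03 for 6 epicardial and 0.15 for 7 macrophage markers, with sums that also overlapped. None of these lists held a call, also with limma-voom. The part of all the markers in the results below was not tested. Of the 5 adipocyte markers, Plin1, Cidec, Lep and Retn were listed at 0 in all 6 libraries. In whole hearts, fewer cells of a type and less RNA per cell cannot be told apart.

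Among the genes of the pathway, as among all tested genes, few differed between Tfam KO and Control hearts. Of the 40 tested members, 1 was higher in Tfam KO hearts and 0 were lower (limma adjusted p under 0.05), against a background of 1.99% of 10807 tested genes higher and 2.6% lower. The member that rose was Acot2, a mitochondrial acyl-CoA thioesterase. Without adjustment, 5 members were higher (background 8.49%) and 3 lower (background 11%) at p under 0.05. Limma-voom on recovered reads called 2 higher (background 2.57%) and 0 lower (background 4.26%). The median log2 fold change of the members was -0.00, against 0.00 over all tested genes. The fold changes of 37 of the 40 members lay within 0.5 of 0 on the log2 scale (92.5%), and so did 91.5% of all tested genes.

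These counts depend on the scale of the libraries. On the scale as deposited, the median of all tested genes was 0.28 above 0 on the log2 scale and that of the members was 0.29. On that scale 5 members (Lpl, Acsl1, Echs1, Acot2 and Acot9) passed the test as higher and 0 as lower, against backgrounds of 6.21% and 1.16%. Over all genes, 43.3% of calls were higher with size factors and 84.3% as deposited. With size factors, 6 members had all Tfam KO libraries above all Control libraries (background 11.8%) and 5 had them below (background 12.2%). As deposited these counts were 19 (background 25.6%) and 1 (background 2.34%). Values below are with size factors unless the deposited scale is named.

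**Figure D1:**
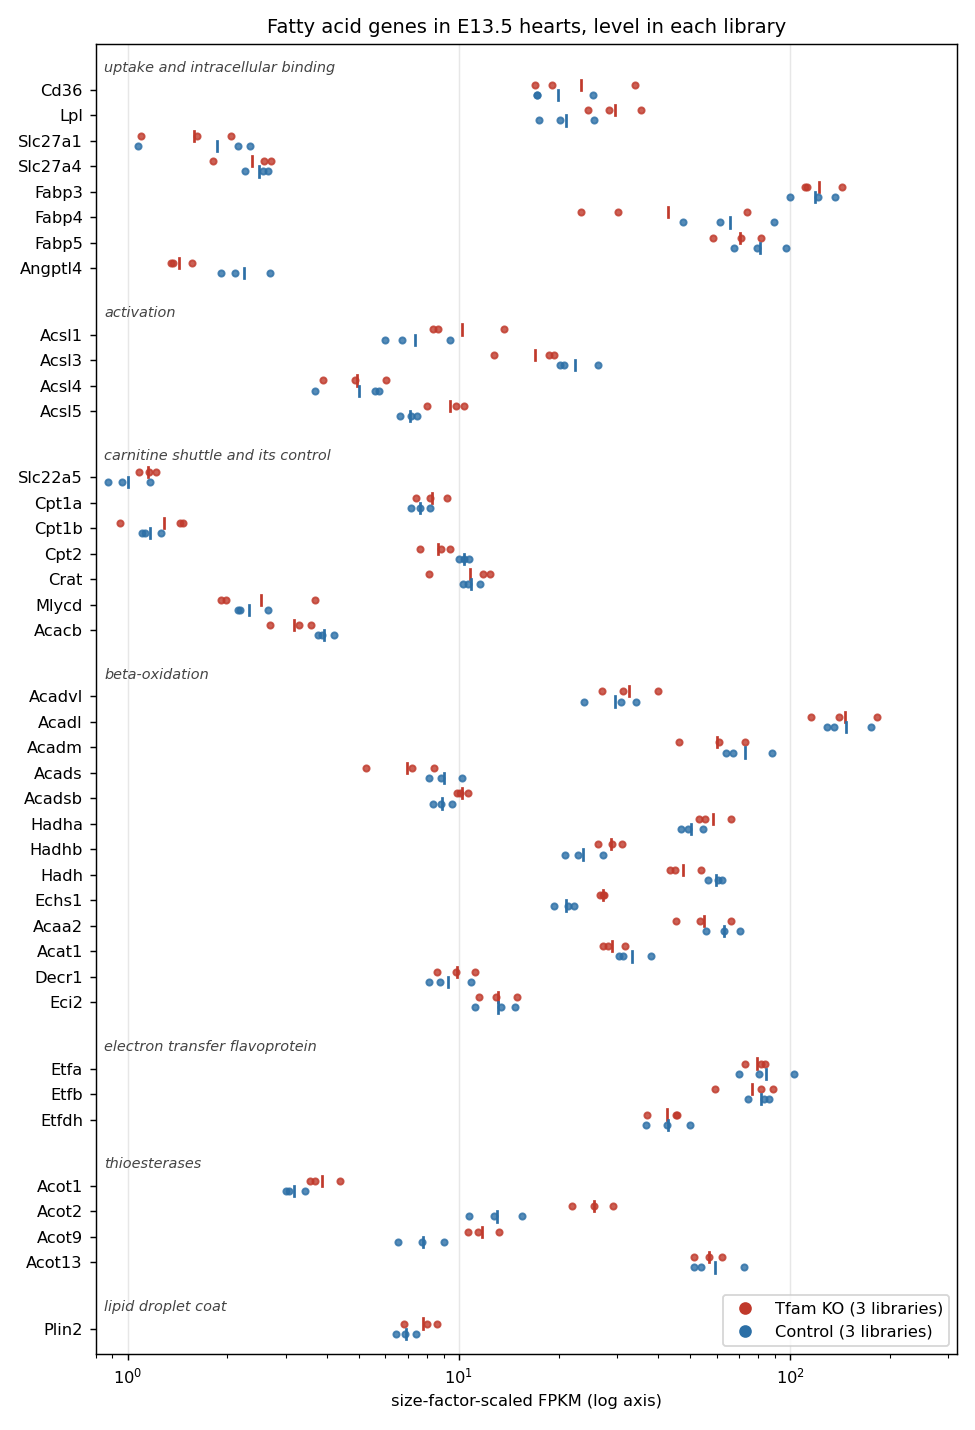
Level of each of the 40 tested members in each library, as scaled FPKM on a log axis, grouped by step. Points are libraries (3 Tfam KO above, 3 Control beneath) and vertical ticks are group means. Levels span from Slc22a5 near 1 to Acadl near 147, and for most members the points of the groups overlap.

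Uptake and binding held 8 members, and 0 of them passed the test in either direction (0 also with limma-voom). Without adjustment 1 was higher (background 8.49%) and 1 lower (background 11%). The summed level of the step was 293 ± 70.8 scaled FPKM in Tfam KO hearts and 314 ± 51.6 in Control hearts (SD, n = 3 each). The most abundant was Fabp3, the heart type of the cytosolic fatty acid binding proteins. Fabp3 had 112, 143 and 111 scaled FPKM in Tfam KO libraries, against 121, 136 and 100.1 in Control libraries. The groups overlapped, and the log2 fold change was 0.04 (95% interval -0.31 to 0.38). Of the 50-base stretches of Fabp3, 37.3% also lie in other genes of the reference, chiefly Fabp3-ps1, and 21.1% of those of Fabp5.

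Lpl, lipoprotein lipase, frees fatty acids from lipoprotein triglyceride at the capillary wall. It had 24.6, 35.6 and 28.4 scaled FPKM in Tfam KO libraries, against 17.4, 25.6 and 20.2 in Control libraries. Tfam KO replicate 1 lay below Control replicate 2, so the groups overlapped. The log2 fold change was 0.47 (SE 0.17) with a limma adjusted p of 0.163, and 0.79 with an adjusted p of 0.0145 as deposited.

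Angptl4, a secreted inhibitor of lipoprotein lipase and a known target of fatty acid sensing PPAR receptors, was the one uptake gene whose libraries lay apart on both scales. It stood at 1.37, 1.57 and 1.35 scaled FPKM in Tfam KO libraries, against 2.70, 2.12 and 1.91 in Control libraries. Every Tfam KO library was below every Control library, but at this low level the log2 fold change of -0.41 (SE 0.14) did not pass the test (limma adjusted p = 0.140, and 0.535 as deposited).

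Fabp4, a binding protein of adipocytes and of capillary and endocardial endothelium, had the lowest log2 fold change of the members and was singled out after its values were seen. Its level was 30.3, 74.3 and 23.4 scaled FPKM in Tfam KO libraries, against 61.4, 89.1 and 47.5 in Control libraries. Tfam KO replicates 1 and 3 were below all controls, while Tfam KO replicate 2 was above 2 of them. At -0.75 its log2 fold change did not pass the test (SE 0.36, limma adjusted p = 0.299). It ran from -1.23 (adjusted p = 0.0321) without Tfam KO replicate 2 to -0.41 (adjusted p = 0.618) without Tfam KO replicate 3, and passed in no other fit with 1 library left out. Liver markers (5 genes) varied over the same libraries. They summed to 0.213, 2.95 and 0.274 scaled FPKM in Tfam KO libraries, against 6.03, 8.98 and 2.36 in Control libraries, none being at 0 in all 6. Their part in the Fabp4 values was not tested.

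The ratio of Fabp4 to Pecam1, an endothelial adhesion molecule, was 1.29, 2.89 and 1.06 within Tfam KO libraries, against 2.87, 3.73 and 2.59 within Control libraries. The groups overlapped through Tfam KO replicate 2 (difference in log2 ratio -0.94, exact permutation p = 0.3, two-sided). Cd36, a membrane protein that takes up long-chain fatty acids, averaged 23.3 ± 9.26 scaled FPKM in Tfam KO hearts and 19.9 ± 4.72 in Control hearts (SD, n = 3 each). Its ratio to Pecam1 differed by 0.01 on the log2 scale (exact permutation p = 1.0).

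Fabp5, the epidermal type of binding protein, averaged 70.4 ± 11.7 scaled FPKM in Tfam KO hearts and 81.4 ± 14.9 in Control hearts. The transport proteins Slc27a1 and Slc27a4, which couple uptake to acyl-CoA synthesis, were low. Slc27a1 averaged 1.59 ± 0.477 scaled FPKM in Tfam KO hearts and 1.86 ± 0.687 in Control hearts. Slc27a4 averaged 2.37 ± 0.488 scaled FPKM in Tfam KO hearts and 2.49 ± 0.207 in Control hearts. For these 3 genes the groups overlapped and the log2 fold changes lay between -0.20 and -0.06.

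Activation is carried out by long-chain acyl-CoA synthetases, and 0 of the 4 members passed the test in either direction (0 also with limma-voom). Without adjustment 1 was higher (background 8.49%) and 1 lower (background 11%). The summed level of the step was 41.5 ± 5.87 scaled FPKM in Tfam KO hearts and 41.9 ± 5.92 in Control hearts (SD, n = 3 each). Within that sum the synthetases lay on both sides of 0. Acsl3, a form found on the endoplasmic reticulum and lipid droplets, was the most abundant. Its level was 12.8, 18.8 and 19.4 scaled FPKM in Tfam KO libraries, against 20.8, 26.2 and 20.2 in Control libraries. All Tfam KO libraries were below all controls, with a log2 fold change of -0.39 (SE 0.17, limma adjusted p = 0.239), which was -0.21 (adjusted p = 0.460) without Tfam KO replicate 1.

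Acsl1, the main form of the adult heart, had 8.34, 13.7 and 8.62 scaled FPKM in Tfam KO libraries, against 6.73, 9.39 and 6.00 in Control libraries. The groups overlapped at a log2 fold change of 0.41 (SE 0.20, limma adjusted p = 0.299). It was 0.71 with an adjusted p of 0.0324 as deposited, and 0.20 with an adjusted p of 0.644 without Tfam KO replicate 2. Acsl5, a form placed on mitochondria and endoplasmic reticulum, had 9.77, 8.03 and 10.4 scaled FPKM in Tfam KO libraries, against 6.65, 7.46 and 7.18 in Control libraries. The libraries lay apart, with a log2 fold change of 0.35 (SE 0.13, limma adjusted p = 0.156). Acsl4, which prefers arachidonic acid and is X-linked, had a log2 fold change of -0.01 (SE 0.18).

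In a ratio of a pair of genes within a library, the library's scale cancels except for the pseudocount of 0.1 added to each FPKM, which weighs on low genes such as Cpt1b. With 3 libraries a group, the smallest exact permutation p is 0.1, so no ratio could pass 0.05, and over the 12 pairs computed the adjusted p of the smallest was 0.3. The Acsl1 to Acsl3 ratio was 0.655, 0.732 and 0.447 in Tfam KO libraries, against 0.328, 0.360 and 0.3002 in Control libraries. Every Tfam KO ratio lay above every Control ratio (log2 difference 0.86, exact permutation p = 0.1, two-sided, adjusted p = 0.3).

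**Figure D2:**
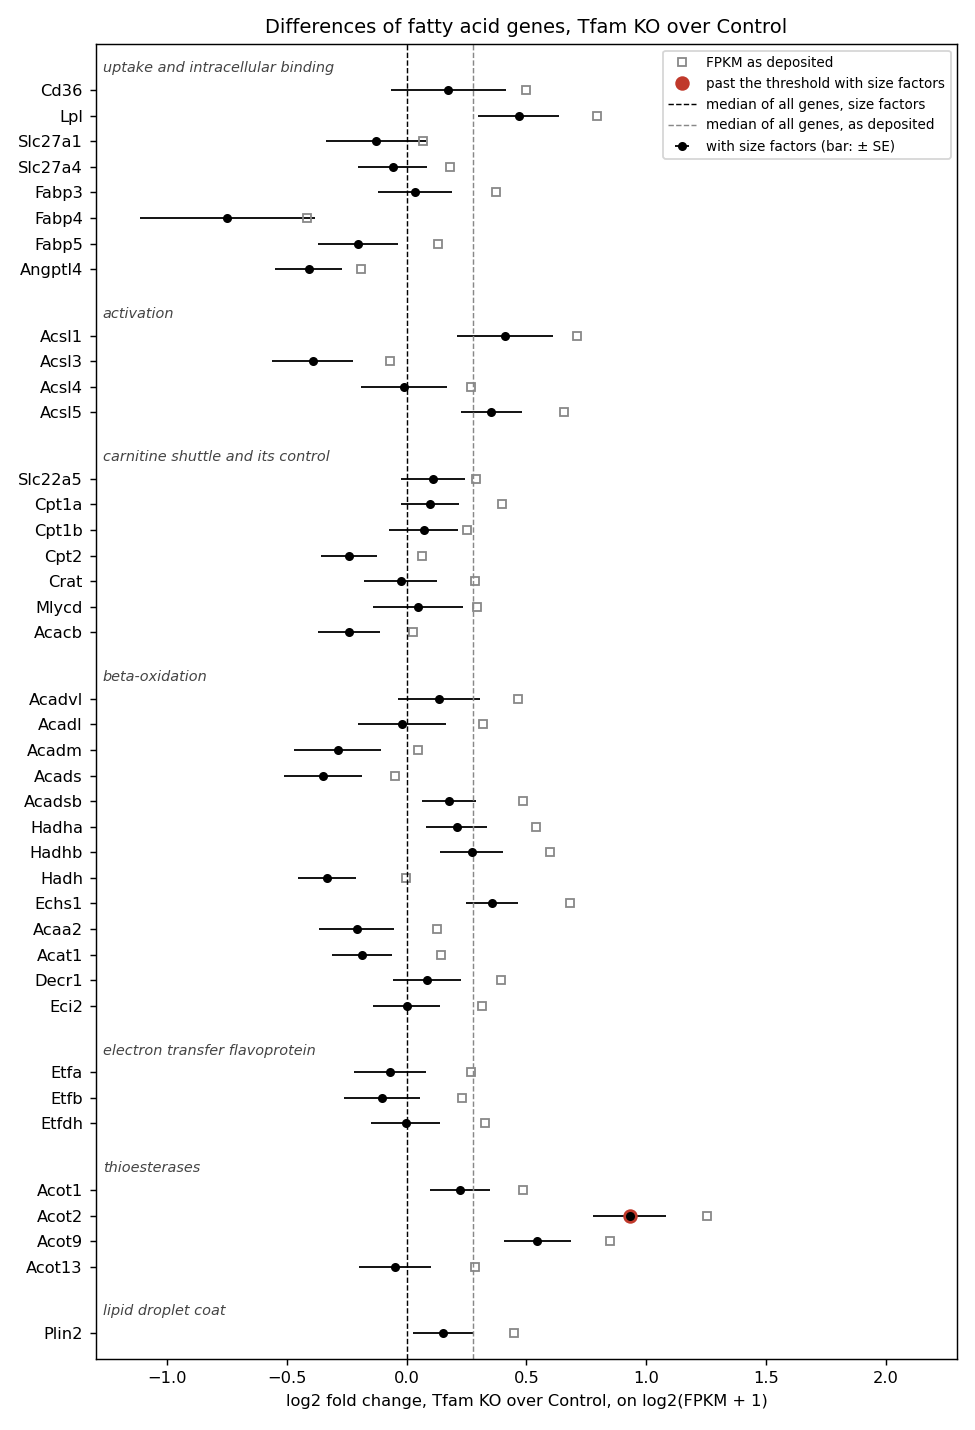
Log2 fold change of each tested member, Tfam KO over Control, by step. Filled points with bars (± SE) are with size factors, open squares are the deposited scale, and dashed lines mark the median of all tested genes on each scale (0.00 and 0.28). Acot2, the larger red point at 0.93, is past the threshold with size factors, and most others lie close to the line of their own scale.

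The carnitine shuttle had 7 members, with 0 passing the test in either direction (0 also with limma-voom and without adjustment). Their log2 fold changes lay between -0.24 and 0.11, and the 95% intervals of all 7 fell between -0.53 and 0.47. Crat, the carnitine acetyltransferase that buffers acetyl-CoA, was the most abundant. It had 12.4, 11.8 and 8.13 scaled FPKM in Tfam KO libraries, against 10.7, 11.6 and 10.3 in Control libraries, so the control values lay inside the Tfam KO range.

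The outer membrane enzyme carnitine palmitoyltransferase 1 sets the rate of entry into mitochondria. Its liver form Cpt1a averaged 8.27 ± 0.888 scaled FPKM in Tfam KO hearts and 7.64 ± 0.50 in Control hearts. Its muscle form Cpt1b, which predominates in the adult heart, averaged 1.29 ± 0.290 scaled FPKM in Tfam KO hearts and 1.17 ± 0.0841 in Control hearts (SD, n = 3 each). In every library of both groups the muscle form was the lower. The Cpt1b to Cpt1a ratio was 0.188, 0.166 and 0.137 in Tfam KO libraries, against 0.151, 0.189 and 0.156 in Control libraries. The ratios overlapped (log2 difference -0.02, exact permutation p = 0.9). Of the 50-base stretches of Cpt1b, 93.0% also lie in the read-through gene Gm44502 of the reference, so its reads could be split between both.

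Cpt2, the inner membrane partner, stood below all controls in every Tfam KO library. It averaged 8.62 ± 0.906 scaled FPKM in Tfam KO hearts and 10.4 ± 0.351 in Control hearts, a log2 fold change of -0.24 (SE 0.12, limma adjusted p = 0.298). The same held for Acacb, whose product malonyl-CoA inhibits carnitine palmitoyltransferase 1. Acacb averaged 3.19 ± 0.459 scaled FPKM in Tfam KO hearts and 3.93 ± 0.232 in Control hearts, a log2 fold change of -0.24 (SE 0.13, limma adjusted p = 0.356). Mlycd, which breaks down malonyl-CoA, had a log2 fold change of 0.05 (SE 0.19). Slc22a5, the carnitine importer, had one of 0.11 (SE 0.14) on 29 to 84 reads a library.

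Beta-oxidation of the mitochondrial matrix and inner membrane had 13 members, with 0 passing the test in either direction (0 also with limma-voom). Without adjustment 1 was higher (background 8.49%) and 1 lower (background 11%). The summed level of the step was 525 ± 76.4 scaled FPKM in Tfam KO hearts and 541 ± 65.4 in Control hearts (SD, n = 3 each). Log2 fold changes were above 0 for 6 members and below 0 for 7, and ran from -0.35 to 0.36. The 95% intervals reached from -0.71 to 0.60, so changes beyond that range were outside the interval for each of these genes.

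The cycle opens with acyl-CoA dehydrogenases graded by chain length. Acadl, the long-chain enzyme, was the most abundant of all 41 members. Acadl had 116, 183 and 140 scaled FPKM in Tfam KO libraries, against 136, 175 and 129 in Control libraries. The groups overlapped widely, with a log2 fold change of -0.02 (SE 0.18). The very long-chain enzyme Acadvl had a log2 fold change of 0.14 (SE 0.17), the medium-chain enzyme Acadm one of -0.29 (SE 0.18) and the short-chain enzyme Acads one of -0.35 (SE 0.16), with limma adjusted p-values of 0.735, 0.434 and 0.274. The Acadvl to Acadm ratio was 0.678, 0.547 and 0.443 in Tfam KO libraries, against 0.483, 0.389 and 0.357 in Control libraries. These ratios overlapped (log2 difference 0.43, exact permutation p = 0.2, and 0.28 without Tfam KO replicate 1). Acadsb, which acts on short branched acyl-CoA from isoleucine, lay above all controls in every Tfam KO library at a log2 fold change of 0.18 (SE 0.11, limma adjusted p = 0.435).

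Echs1, the short-chain enoyl-CoA hydratase, carries out the hydration step of the cycle and also serves valine breakdown. Echs1 had 26.8, 27.5 and 27.2 scaled FPKM in Tfam KO libraries, against 19.4, 22.2 and 21.3 in Control libraries. The Tfam KO libraries had a narrow spread and lay above all controls. The log2 fold change of 0.36 (SE 0.11) had a limma adjusted p of 0.0981, and that of 0.68 as deposited had one of 0.0443.

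Hadh, the dehydrogenase that follows Echs1 for medium and short chains, lay on the other side of 0. It had 45.1, 53.7 and 43.4 scaled FPKM in Tfam KO libraries, against 56.5, 62.4 and 60.5 in Control libraries. All Tfam KO libraries were below all controls with size factors (log2 fold change -0.33, SE 0.12, limma adjusted p = 0.166). As deposited the log2 fold change was -0.00, where the median of all genes was 0.28.

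Hadha and Hadhb are the alpha and beta subunits of the trifunctional protein, which handles long chains at the inner membrane, and their genes share a promoter region. Hadha averaged 58.4 ± 7.12 scaled FPKM in Tfam KO hearts and 50.3 ± 4.02 in Control hearts. Hadhb averaged 28.7 ± 2.40 scaled FPKM in Tfam KO hearts and 23.7 ± 3.23 in Control hearts (SD, n = 3 each). The groups overlapped for both, and the ratio of alpha to beta differed by -0.07 on the log2 scale (exact permutation p = 0.6). Of the 50-base stretches of Hadhb, 62.4% also lie in other genes of the reference, chiefly Gm13910.

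For the remaining enzymes the groups overlapped and none passed the test. Acaa2, the medium-chain thiolase, averaged 55.0 ± 10.7 scaled FPKM in Tfam KO hearts and 63.2 ± 7.32 in Control hearts. Acat1, the mitochondrial acetoacetyl-CoA thiolase, averaged 29.0 ± 2.36 scaled FPKM in Tfam KO hearts and 33.3 ± 4.21 in Control hearts. Decr1 and Eci2, which prepare unsaturated acids for the cycle, had log2 fold changes of 0.09 (SE 0.14) and -0.00 (SE 0.14).

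Electron transfer flavoprotein takes electrons from the dehydrogenases to ubiquinone, and 0 of its 3 members passed the test (0 also with limma-voom and without adjustment). The alpha subunit Etfa had 73.3, 83.8 and 81.7 scaled FPKM in Tfam KO libraries, against 80.7, 103 and 70.1 in Control libraries, which enclose the Tfam KO range. The beta subunit Etfb averaged 76.7 ± 15.4 scaled FPKM in Tfam KO hearts and 81.4 ± 6.29 in Control hearts, and the oxidoreductase Etfdh 42.6 ± 4.87 in Tfam KO hearts and 42.9 ± 6.58 in Control hearts (SD, n = 3 each). Log2 fold changes ran from -0.10 to -0.01, with 95% intervals between -0.45 and 0.31. The Etfa to Etfb ratio differed by 0.04 on the log2 scale (exact permutation p = 0.9). Of the 50-base stretches of Etfb, 67.3% also lie in Gm45233.

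Acyl-CoA thioesterases split acyl-CoA back into free acid and coenzyme A, and this step held the member that rose. Of its 4 members, 1 passed the test as higher (background 1.99%) and 0 as lower. With limma-voom 2 were higher (background 2.57%) and 0 lower, and without adjustment also 2 (background 8.49%) and 0. Acot2, the mitochondrial long-chain thioesterase, had 25.7, 29.2 and 22.0 scaled FPKM in Tfam KO libraries, against 12.8, 15.5 and 10.7 in Control libraries. The lowest Tfam KO library exceeded the highest control. Acot2 rose by 0.93 on the log2 scale (SE 0.15, 95% interval 0.59 to 1.27, limma adjusted p = 0.00681), and by 1.25 as deposited (adjusted p = 4.84e-06). It rested on 318 to 1070 reads a library and ranked 109 of the 10807 tested genes from the highest fold change down.

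Acot9, another mitochondrial thioesterase, had 10.7, 13.2 and 11.4 scaled FPKM in Tfam KO libraries, against 6.57, 9.01 and 7.73 in Control libraries. The libraries did not overlap. The log2 fold change of 0.55 (SE 0.14) had a limma adjusted p of 0.0544, and as deposited it was 0.85 (adjusted p = 0.00684). It passed the test without Control replicate 2 (0.65, adjusted p = 0.0341) and missed it without any other single library, down to 0.44 (adjusted p = 0.183) without Control replicate 1. Acot9 lies on the X chromosome, and the sex-linked RNA of the pools was looked at after the values were seen. Y-linked Ddx3y had 3.58, 8.06 and 4.26 scaled FPKM in Tfam KO libraries, against 2.40, 1.70 and 2.44 in Control libraries. Xist, made by the inactive X chromosome, had 11.4, 6.93 and 16.03 scaled FPKM in Tfam KO libraries, against 12.8, 24.1 and 14.2 in Control libraries. The Xist groups overlapped (log2 fold change -0.55, limma adjusted p = 0.322). The Ddx3y groups lay apart (log2 fold change 0.93, limma adjusted p = 0.0509, and 0.0143 with limma-voom). Eif2s3y, Kdm5d and Uty, also Y-linked, were higher in every Tfam KO library than in any control. The part of sex-linked RNA in the values of Acot9 and of the other genes was not tested. Of the 50-base stretches of Acot9, 20.2% also lie in other genes, chiefly Acot10.

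Acot1, the cytosolic relative of Acot2, had 3.56, 4.39 and 3.68 scaled FPKM in Tfam KO libraries, against 3.01, 3.07 and 3.43 in Control libraries. The libraries lay apart by a small margin, with a log2 fold change of 0.22 (SE 0.13, limma adjusted p = 0.379). The Acot2 to Acot1 ratio was 7.06, 6.52 and 5.87 in Tfam KO libraries, against 4.12, 4.90 and 3.07 in Control libraries. Again every Tfam KO ratio exceeded every Control ratio (log2 difference 0.71, exact permutation p = 0.1, adjusted p = 0.3). These genes share sequence, since 24.5% of the 50-base stretches of Acot2 also lie in Acot1 and 23.9% of those of Acot1 in Acot2, so some reads could be counted for either. Acot13, a thioesterase associated with mitochondria and the most abundant of the step, had 51.2, 62.3 and 56.9 scaled FPKM in Tfam KO libraries, against 51.3, 72.5 and 53.9 in Control libraries. Its groups overlapped (log2 fold change -0.05, SE 0.15).

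**Figure D3:**
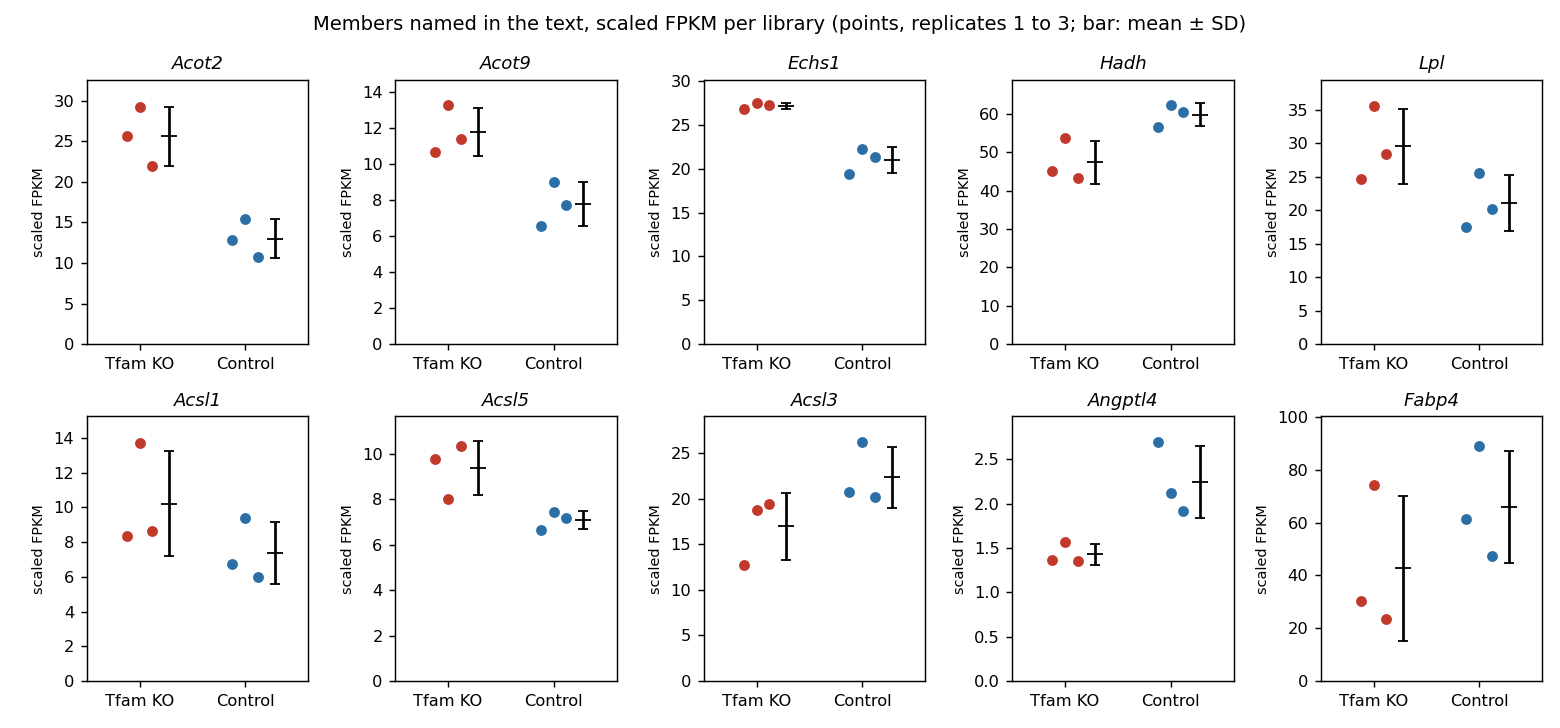
Scaled FPKM of 10 members in each library, Tfam KO at left and Control at right, with the mean ± SD (n = 3) beside the points. Acot2 has every Tfam KO point (22.0 or more) above every Control point (15.5 or less), while for Lpl, Acsl1 and Fabp4 the groups overlap.

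The stretches before the start of transcription of Acot2, Acot9 and Echs1 are shown because these genes had the lowest limma p-values of the members. They are the 250 bases before the RefSeq start on GRCm38.p6, at chr12:83987611-83987860 on the plus strand (Acot2), chrX:155262193-155262442 on the plus strand (Acot9) and chr7:140116422-140116671 on the minus strand (Echs1). Capitals mark the element TGATGCAAT, a composite site of the stress factor ATF4 and its C/EBP partners.
Acot2: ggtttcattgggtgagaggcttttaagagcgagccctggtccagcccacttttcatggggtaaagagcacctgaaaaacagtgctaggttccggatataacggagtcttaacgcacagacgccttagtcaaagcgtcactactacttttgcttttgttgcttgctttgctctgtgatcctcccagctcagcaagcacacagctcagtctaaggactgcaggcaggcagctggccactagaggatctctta
Acot9: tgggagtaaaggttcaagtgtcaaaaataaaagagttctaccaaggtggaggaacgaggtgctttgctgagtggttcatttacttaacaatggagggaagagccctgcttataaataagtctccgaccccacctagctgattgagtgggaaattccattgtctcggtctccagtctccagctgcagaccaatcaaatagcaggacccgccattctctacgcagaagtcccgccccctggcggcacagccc
Echs1: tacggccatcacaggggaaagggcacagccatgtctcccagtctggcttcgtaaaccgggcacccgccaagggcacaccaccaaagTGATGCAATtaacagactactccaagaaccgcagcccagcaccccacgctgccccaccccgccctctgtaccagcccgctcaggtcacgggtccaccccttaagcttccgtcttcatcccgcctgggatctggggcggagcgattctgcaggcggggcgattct

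Windows were found for 31 of the 41 members and for 27025 genes in all, and both strands were read. TGATGCAAT occurred in 1 of the 31 members, Echs1, between bases 164 and 156 before the start, and in 0.192% of all windows. The shorter form TGATGNAA, where N is any base, occurred in Echs1 and Fabp3 (6.45% of members) and in 3.91% of all windows. It overlaps the longer form in Echs1. The element DR1, a repeat of the letters AGGTCA after 1 free base to which PPAR receptors bind, was searched with at most 1 mismatch and occurred in 0 of the 31 member windows and in 0.566% of all windows. The element of the estrogen-related receptors, TCAAGGTCA, occurred in 0 of the 31 and in 0.422% of all windows. A match is a run of letters and not a shown site, and these windows say nothing of elements elsewhere in the genes.

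Plin2, the lipid droplet coat protein found in most cells, had 8.01, 8.62 and 6.82 scaled FPKM in Tfam KO libraries, against 7.40, 6.90 and 6.46 in Control libraries. The groups overlapped (log2 fold change 0.15, SE 0.12). Plin5, the coat protein of oxidative tissue that ties droplets to mitochondria, was near the limit of detection. It was at 0.0344, 0 and 0 scaled FPKM in Tfam KO libraries, against 0.0444, 0.235 and 0.222 in Control libraries, on at most 8 reads a library, and was not tested.

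Because cardiomyocytes hold much of the fatty acid machinery, 3 members were also set against Tnnt2, cardiac troponin T. Tnnt2 itself had 1559, 3197 and 1887 scaled FPKM in Tfam KO libraries, against 3061, 3253 and 2414 in Control libraries. Its log2 fold change was -0.45 (limma adjusted p = 0.400). Tfam KO replicates 1 and 3 were below all controls. The Lpl to Tnnt2 ratio was 0.0158, 0.0112 and 0.0151 in Tfam KO libraries, against 0.00573, 0.00791 and 0.00842 in Control libraries. The Fabp3 to Tnnt2 ratio was 0.0721, 0.0448 and 0.0588 in Tfam KO libraries, against 0.0396, 0.0420 and 0.0415 in Control libraries. Both ratios were higher in every Tfam KO library than in any control (log2 differences 0.93 and 0.49, exact permutation p = 0.1 and adjusted p = 0.3 for each). The Fabp3 difference was 0.32 without Tfam KO replicate 1. Fabp3 alone had a log2 fold change of 0.04 and Lpl one of 0.47. With size factors the Fabp3 difference thus lay mostly in Tnnt2, and that of Lpl in both genes. As deposited the log2 fold changes were 0.37 for Fabp3, 0.79 for Lpl and -0.11 for Tnnt2. On that scale both differences lay mostly in Fabp3 and Lpl, so the split between the genes depends on the scale. The Cpt1b to Tnnt2 ratio overlapped (log2 difference 0.53, exact permutation p = 0.2, and 0.21 without Tfam KO replicate 1). So did that of Fabp3 to Fabp5 (0.24, exact permutation p = 0.2, and 0.12 without Control replicate 1).

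**Figure D4:**
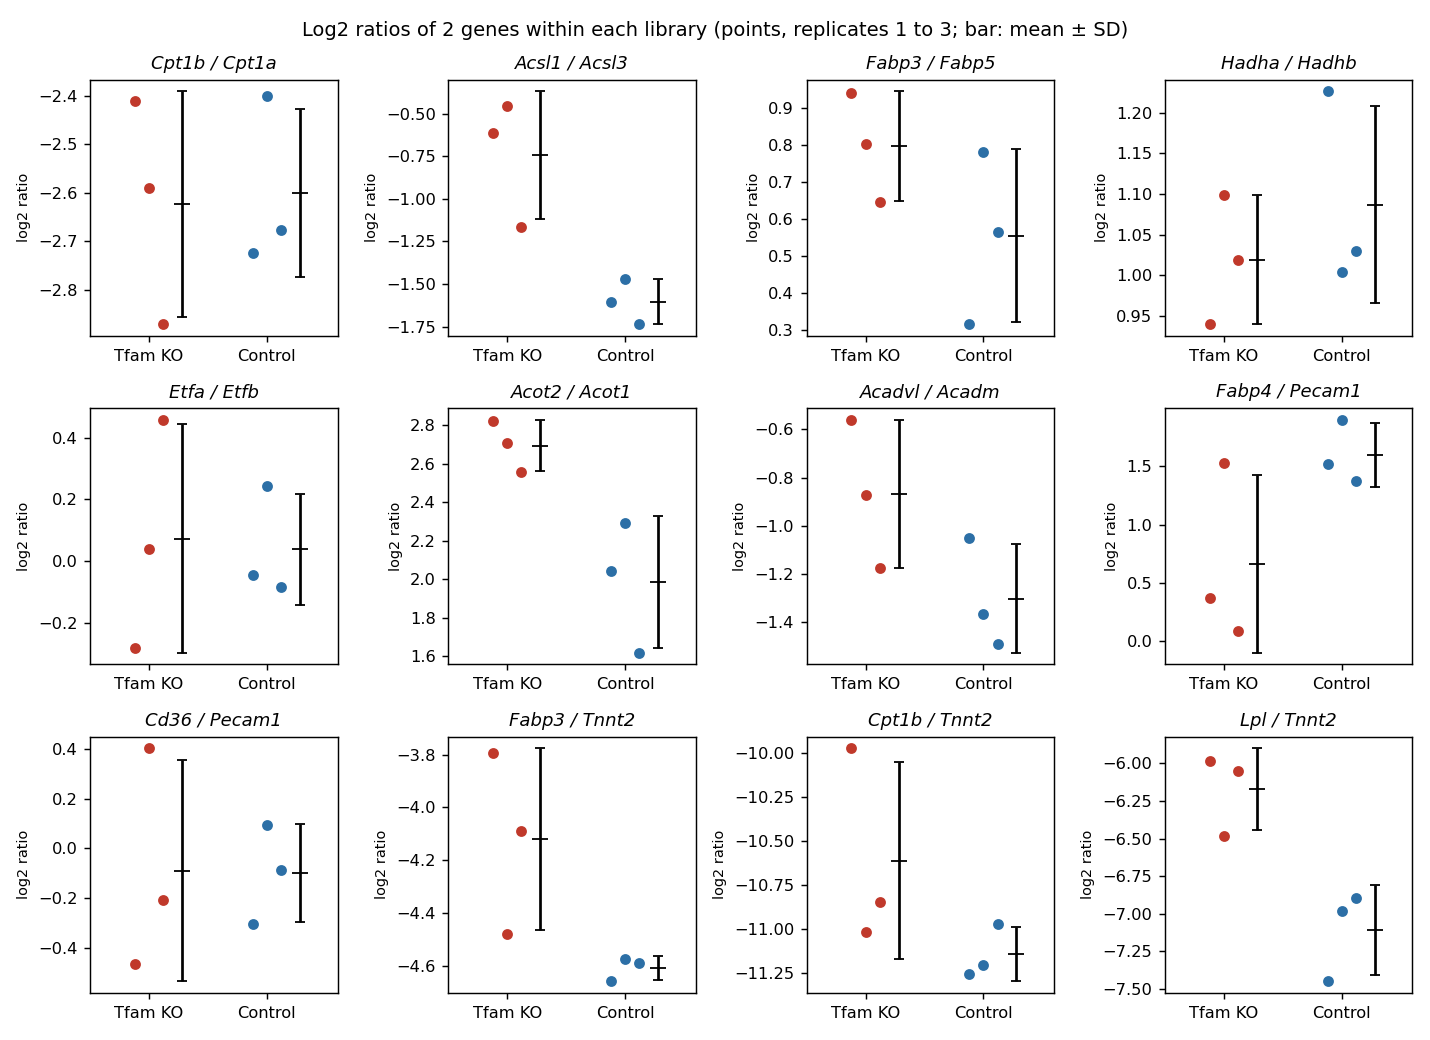
Log2 ratio of a pair of genes within each library for the 12 pairs, Tfam KO at left and Control at right, with the mean ± SD (n = 3). In 4 pairs (Acsl1 to Acsl3, Acot2 to Acot1, Fabp3 to Tnnt2 and Lpl to Tnnt2) every Tfam KO point is above every Control point, and in the other 8 the groups overlap.

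Another 90 genes of fatty acid and ketone use were read in the same fit, of which 66 were tested. In Tfam KO hearts 3 were higher (background 1.99%) and 0 lower (background 2.6%), and as deposited 7 were higher (background 6.21%) and 0 lower (background 1.16%). Vldlr, a receptor that takes up triglyceride-rich lipoproteins, had 16.6, 17.3 and 18.8 scaled FPKM in Tfam KO libraries, against 7.82, 11.4 and 10.8 in Control libraries. It rose by 0.77 on the log2 scale (SE 0.14, limma adjusted p = 0.0128), with no overlap. Them4, a further mitochondrial acyl-CoA thioesterase, had 4.55, 6.40 and 4.67 scaled FPKM in Tfam KO libraries, against 2.04, 2.71 and 2.61 in Control libraries. It rose by 0.84 (SE 0.15, limma adjusted p = 0.0110), again with no overlap. Bdh1, which interconverts the ketone bodies beta-hydroxybutyrate and acetoacetate, had 5.40, 4.13 and 2.94 scaled FPKM in Tfam KO libraries, against 1.79, 1.65 and 1.504 in Control libraries. It rose by 0.94 (SE 0.17, limma adjusted p = 0.0129), and the groups were apart. Its adjusted p was 0.0522 without Tfam KO replicate 2 and 0.0598 without Control replicate 3.

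In the same fit the lists held no further calls. None of 14 other mitochondrial carnitine and beta-oxidation genes passed the test (0 with limma-voom, 1 higher without adjustment, background 8.49%). Their median log2 fold change was 0.08. They include Slc25a20, the carrier that exchanges acylcarnitine for carnitine, at 14.0 ± 1.36 scaled FPKM in Tfam KO hearts and 11.7 ± 0.989 in Control hearts (SD, n = 3 each). None of 13 peroxisomal oxidation genes passed (1 higher unadjusted, background 8.49%, 0 with limma-voom, median 0.14). None of 14 genes of the PPAR and estrogen-related receptor network passed (2 lower unadjusted, background 11%, 0 with limma-voom, median -0.08). Of these, the coactivator Ppargc1a averaged 20.5 ± 4.36 scaled FPKM in Tfam KO hearts and 19.9 ± 4.78 in Control hearts. The remaining lists were other uptake and lipolysis genes (16 tested, median 0.02), other thioesterases (3 tested, median -0.28) and ketone body use (6 tested, median 0.10). In these the calls were Vldlr, Them4 and Bdh1, 1 in each, and limma-voom called 1 further uptake and lipolysis gene, Abhd5. Without adjustment 3 uptake and lipolysis genes were higher and 2 lower (backgrounds 8.49% and 11%). Other thioesterases had 1 and 1, and ketone body use 2 and 1. Abhd5, Dgat2, Dbi and G0s2 were named after their values were seen. Abhd5, the activator of adipose triglyceride lipase, averaged 4.03 ± 0.595 scaled FPKM in Tfam KO hearts and 2.54 ± 0.499 in Control hearts (log2 fold change 0.51, limma adjusted p = 0.0853, 0.0384 with limma-voom and 0.0128 as deposited). Dgat2, an enzyme of triglyceride synthesis, averaged 2.87 ± 0.743 scaled FPKM in Tfam KO hearts and 1.499 ± 0.529 in Control hearts (log2 fold change 0.64, limma adjusted p = 0.0996, 0.0589 with limma-voom and 0.00236 as deposited). The 2 uptake and lipolysis genes lower without adjustment were Dbi and G0s2. For Dbi every Tfam KO library was below every control (log2 fold change -0.40, limma adjusted p = 0.108, 0.0787 with limma-voom and 0.851 as deposited). For G0s2 the groups overlapped (log2 fold change -0.64, limma adjusted p = 0.161, 0.0756 with limma-voom and 0.323 as deposited). Acad11 and Pex11a were called as deposited alone.

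**Figure D5:**
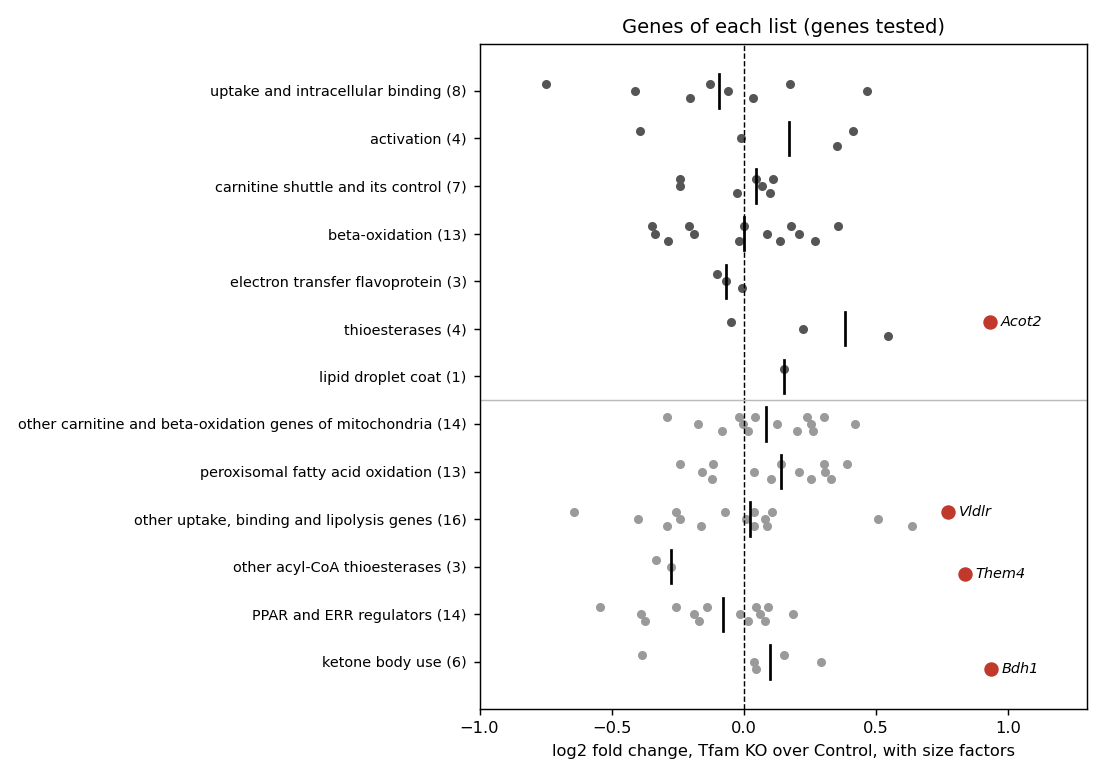
Log2 fold changes of the tested genes, Tfam KO over Control with size factors, for each step of the 41 members (dark points) and for each list of other pathway genes (grey points). Vertical ticks are medians, and red points (Acot2, Vldlr, Them4 and Bdh1) passed the test.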

How the data were processed

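Polyadenylated RNA (Qiagen RNeasy Mini, Dynabeads oligo(dT), per the labels) was sequenced for 3 Tfam KO and 3 Control pools. The deposited files hold log2(FPKM + 1) computed by the authors, the unit being named in the files and the log base read from the values. CASAVA 1.8.2, TopHat2 2.0.7, HTSeq 0.5.3 and build mm9 are listed, with no role, in the submitters' processing notes. Annotation, strand setting and FPKM formula are not given in the sources used here, so a gene and one overlapping it on the other strand cannot be told apart (Echs1 with Paox, Acsl1 with Gm45244, Acsl5 with Zdhhc6 and Acadvl with Dvl2 among members).

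Values were turned back to FPKM. Library totals were recovered from the FPKM steps of 268 genes, and all 17876 genes above 0 then gave whole reads (tolerance 1e-05). Median-of-ratios size factors from 10741 genes ran from 0.812 to 1.33. Differences were tested with limma 3.58.1 in R 4.3.3 on log2(FPKM / size factor + 1) for the 10807 genes averaging 1 FPKM or more, with a variance trend, two-sided, Benjamini-Hochberg adjusted over all genes, threshold 0.05. Such fold changes understate the change of low genes. The fit was tested on simulated data. Ratios used a pseudocount of 0.1 and exact permutation tests. Sequence sharing and promoters used GENCODE transcripts and RefSeq windows on GRCm38. The share of 50-base stretches found in other genes was also 27.1% for Slc22a5 and 24.0% for Acadvl.

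The members, lists, pairs and size factors were chosen with earlier results of these data known. Genes were given in every library if past the threshold on either scale or at an unadjusted p under 0.05. So were those highest of their step, near 0, or in a pair whose ratios lay apart. Genes of the other lists were named if past the threshold on either scale. Some others were among the most abundant of their list or were named after their values were seen. Samples with the same replicate number were not taken as pairs. Alternatives were the deposited scale, upper-quartile scaling, another pseudocount, other filters, limma-voom, a replicate block and leaving out each library.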

Additional observations from a re-analysis of the deposited data

How the results depend on the processing

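Acot2 and Vldlr passed the test as higher in all 13 alternatives (Acot2 0.81 to 1.25 on the log2 scale, adjusted p 4.84e-06 to 0.0356), Acot9 in 6 of 13, Lpl in 2, and Acsl1 and Echs1 in 1 each. Acsl3, Acsl5, Angptl4 and Hadh passed in none. Them4 was lost with no filter on low values (adjusted p = 0.0522), and Bdh1 with no filter (0.0654) and without Tfam KO replicate 2 or Control replicate 3. As deposited, 671 genes were higher and 125 lower, 5 members were higher, and the members' median was 0.29. Lower genes numbered 144 with no filter and 460 with limma-voom, against 281. Higher members were 2 (Acot2 and Acot9) with upper-quartile scaling, with a filter at 5 FPKM and with limma-voom (230, 169 and 278 of all genes). Leaving out 1 library gave 134 to 216 higher genes, 126 to 353 lower genes, 1 to 2 higher members and 0 to 1 lower members, with medians of -0.06 to 0.09. The lowest counts came without Control replicate 3 (134 and 126), and without Tfam KO replicate 3 and Control replicate 1 lower genes were 163 and 156. The lower member was Fabp4, without Tfam KO replicate 2.

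With a replicate block, 3 members were higher (Lpl, Acot2 and Acot9) and 1 lower (Fabp4, adjusted p = 0.0335), of 278 and 421 genes in all. Dgat2, from the other lists, was also called higher with the block (adjusted p = 0.0433). The residual SD was 0.149 with the block and 0.175 without it. Deviations of same-numbered libraries correlated at 0.359, 0.0681 and 0.159. Tfam KO replicates 1 and 2 correlated best with their own number, and Tfam KO replicate 3 with Control replicate 2 (0.252). The labels do not say that the numbers pair the pools, and these correlations cannot settle it. The block was therefore kept as an alternative. The Cpt1b to Cpt1a difference turned to 0.0057 with no pseudocount and ran from -0.13 to 0.10 without 1 library, as did Hadha to Hadhb (-0.11 to 0.0022), Etfa to Etfb (-0.16 to 0.21) and Cd36 to Pecam1 (-0.24 to 0.20). The cause of these moves was not tested. The number of pools limits what small differences can pass, and Plin5, at 8 reads or fewer, is below what this depth can compare.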
